A study of Homo sapiens with 14 samples.

Results

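The 6 arrays described here hold the baseline transcriptome of Mel202, a human uveal melanoma cell line, in cells that received only the solvent DMSO. They were taken by their labels, 3 arrays after 24 h and 3 after 48 h, out of 14 arrays in the series. The other 8 arrays, 4 at each time, are of cells given ICG-001 at 3 µM, a compound that binds the coactivator CREBBP. Per the labels, all the cells carry the GNAQ changes Q209L and R210K and are wild-type for BRAF. The line came from a primary tumour of the eye that had been irradiated and had recurred locally, and 1 such line stands for no other tumour. Cells were grown in DMEM/F12 medium with serum and treated in 6-well plates, and RNA was hybridised to Illumina bead arrays.

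Uveal melanoma arises from melanocytes of the eye, the pigment cells, and most such tumours carry an activating change in GNAQ or its sister gene GNA11. These genes encode alpha subunits of the Gq family of G proteins, which signal through phospholipase C beta and protein kinase C to the MAP kinases, and through TRIO and small GTPases to YAP1. The pigment programme of melanocytes is run by MITF, a basic helix-loop-helix transcription factor that binds E-boxes in the promoters of pigment genes, together with SOX10 and PAX3.

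At 24 h the arrays comprise replicate 1 and replicate 2, where replicate 2 stands for 2 arrays whose titles share a number and end in a and b. At 48 h it is replicate 1 that stands for arrays a and b. The labels do not say whether such a pair is 1 RNA hybridised on 2 arrays or a pair of separate cultures. Averaging each pair to 1 replicate was therefore a choice, which gives n = 2 at each time and 4 DMSO replicates in all. With every array as a replicate, 29 genes were called between the times in place of 4. Lists of 3 signals below follow the order just given. A signal is the deposited mean intensity of a probe on an array, in arbitrary units and not normalized between arrays. Where arrays of a gene are ordered below, the order is that of these signals. With so few arrays, the precision of each value is limited.

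A probe was called detected on an array when its deposited detection p-value was below 0.01. Between 13787 and 17048 of 47323 probes passed this on a DMSO array, and the 2 arrays ending in b gave the lowest counts, 13898 at 24 h and 13787 at 48 h. The median signals were 126.9 to 139.1. DMSO 24 h replicate 2 stood farther from its partner than the 48 h replicates from each other. Across 11679 genes, which are not independent replicates, the 24 h replicates correlated with r = 0.9865 and differed over 2-fold for 176 genes. The 48 h replicates correlated with r = 0.9911 and differed over 2-fold for 73 genes.

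The promoters of 3 pigment genes with bright probes are shown because MITF is known to bind the letters CATGTG and CACGTG. These 3 were a fixed choice and not the brightest lineage genes. PMEL had no window. GPNMB, with a brighter probe than TYR and MLANA, has a window with 2 matches to TCATGTG that is not shown. The windows run from 250 bases before to 50 bases after the gene start, 300 bases on the plus strand, from RefSeq on build GRCh38.p14. Capitals mark CATGTG, or CACATG where it lies on the other strand. TYR is at chr11:89177625-89177924, TYRP1 at chr9:12693135-12693434 and MLANA at chr9:5890639-5890938.
TYR: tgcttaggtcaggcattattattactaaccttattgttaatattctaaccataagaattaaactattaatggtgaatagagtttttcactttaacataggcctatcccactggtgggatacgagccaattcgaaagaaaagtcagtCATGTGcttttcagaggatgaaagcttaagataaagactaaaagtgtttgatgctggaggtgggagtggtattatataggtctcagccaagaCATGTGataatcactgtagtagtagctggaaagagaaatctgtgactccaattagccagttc
TYRP1: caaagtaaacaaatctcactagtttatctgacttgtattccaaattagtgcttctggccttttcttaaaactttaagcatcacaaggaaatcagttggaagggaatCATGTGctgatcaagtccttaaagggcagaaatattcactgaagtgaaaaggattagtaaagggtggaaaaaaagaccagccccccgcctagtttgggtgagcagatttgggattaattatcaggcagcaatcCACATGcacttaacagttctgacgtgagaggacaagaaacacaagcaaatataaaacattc
MLANA: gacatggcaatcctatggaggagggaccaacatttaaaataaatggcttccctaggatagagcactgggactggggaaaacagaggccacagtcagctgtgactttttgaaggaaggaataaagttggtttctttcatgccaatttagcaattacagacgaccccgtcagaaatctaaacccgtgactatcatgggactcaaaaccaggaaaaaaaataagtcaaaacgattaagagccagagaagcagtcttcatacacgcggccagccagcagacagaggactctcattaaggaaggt

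In TYR the letters start 104 and 12 bases before the gene start, and in TYRP1 they start 144 and 11 bases before it. The match 104 bases before the start of TYR and the one 144 bases before the start of TYRP1 lie within the longer TCATGTG. The MLANA window holds none of these letters. Of 32 genes listed for the melanocyte lineage, 23 had a window in the table. CATGTG, on either strand, was in 10 of them (43.5%), TCATGTG in 6 (26.1%) and CACGTG in 1. Over all 27305 windows the shares were 11.2%, 2.99% and 7.43% in that order, and over the 6828 windows of genes detected on all 6 DMSO arrays they were 6.53%, 1.74% and 11.3%. The lineage list holds genes known as MITF targets, so these shares describe the list and are no test, and TCATGTG is counted within CATGTG as well.

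On the 6 DMSO arrays 12761 of 47323 probes (26.97%) were detected on every array, 28323 (59.9%) on none and 6239 on some. Gene names cover only probes of the authors' own processed table, which holds 22579 probes and fewer dim ones. Of 16545 named probes 1985 were detected on no DMSO array. Shares of named or measured genes, here and below, are therefore shares of a set poor in undetected probes. They do not extend to genes without a named probe. By any of their named probes, 8305 of 12306 named genes (67.5%) were detected on all 6 arrays, 2632 on 1 to 5 and 1369 (11.1%) on none. At a detection p-value below 0.05, 9395 named genes were detected on all 6. On the 8 ICG-001 arrays 8338 named genes were detected on every array, and 7987 were detected on all 14.

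**Figure D1:**
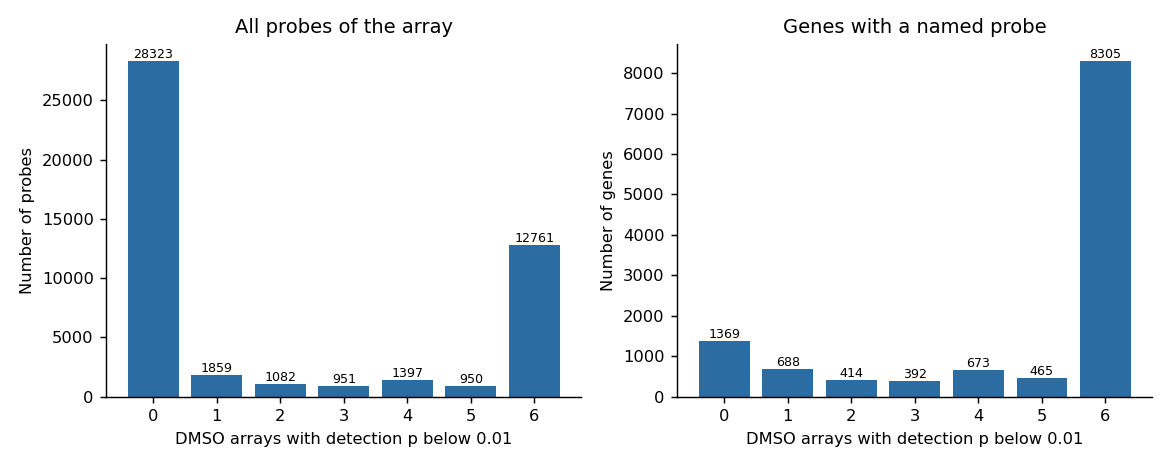
Number of probes (left, all 47323 probes) and of named genes (right, 12306 genes) by the number of DMSO arrays, 0 to 6, on which they had a detection p-value below 0.01. Most probes were detected on no array or on every array, with 28323 on none and 12761 on all 6, and 8305 named genes were detected on all 6.

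No named gene was detected on all 6 DMSO arrays and on no ICG-001 array. The reverse held for 4 genes, ABCA3, XYLT1, KLF5 and DMXL1. ABCA3, a lipid transporter, had DMSO signals of 128 to 158 and ICG-001 signals of 218 to 450. KLF5, a zinc finger transcription factor, had DMSO signals of 112 to 131 and ICG-001 signals of 136 to 197. For both genes every ICG-001 array lay above every DMSO array. They were picked by these detection calls, so the gap largely follows from the choice and is no separate result. XYLT1, which starts the sugar chains of proteoglycans, was at 128 to 150 against 167 to 219, and DMXL1 overlapped at 136 to 157 against 137 to 179.

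After background correction and quantile normalization to the log2 scale, 5265 named genes had a mean of at least 8 over the DMSO replicates, 479 of at least 12 and 51 of at least 14. Among the probes that represent the 11679 genes tested, that of PMEL had the highest mean log2 signal. PMEL encodes the fibril protein of the melanosome, the pigment organelle. Other probes could be brighter on an array, with a maximum of 24777 against 22952 for PMEL on array b of 48 h replicate 1. PMEL was followed by EEF1A1, RPL13AP5, ACTG1, RPL41, TPT1, RPS25, RPS12, ACTB and RPL9. Apart from TPT1, these are translation, ribosome and actin genes and a ribosomal pseudogene. Genes with near-identical copies, such as RPL13AP5, share probe sequence with their parent gene. All 40 measured ribosomal protein genes were detected on all 6 arrays, against 67.5% of all named genes. Below, the signal position of a gene is the percentage of the 47323 probes that lay lower on the same array, averaged over the 4 replicates. It is a position of a probe and not a transcript abundance, since probes differ in their response. Because 59.9% of all probes were detected on no DMSO array, a dim probe can still hold a high position. PAX3, for example, lay at 75.7% of all probes but at 49.0% among the probes of the authors' table.

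The melanocyte markers were among the brightest probes. PMEL had signals of 19678, 24000 and 22798 at 24 h and of 22553, 22952 and 21646 at 48 h, with a log2 mean of 14.41 ± 0.05 (SD, n = 4). The PMEL probe lay near the top of the signals on every array, and the times overlapped. MLANA, the melanosomal antigen Melan-A, had 3309, 4544 and 4209 at 24 h and 4996, 2838 and 3319 at 48 h. Its signal position was 97.6 ± 0.13% (SD, n = 4), and its highest and its lowest deposited signal were on the 2 arrays of 48 h replicate 1. After normalization array b of 24 h replicate 2 was the highest, at log2 11.78 against 11.77 for array a of 48 h replicate 1. TYR, the rate-limiting enzyme of melanin synthesis, had 3992, 4837 and 4402 at 24 h and 7629, 5550 and 5548 at 48 h. Every 48 h array of TYR lay above every 24 h array, as was the case, in either direction, for 9.66% of the 11679 genes tested between the times. The test of this difference is given with the time comparison below.

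MITF had signals of 1412, 1363 and 1197 at 24 h and of 2073, 1291 and 1428 at 48 h, a signal position of 94.3 ± 0.62% (SD, n = 4). The times overlapped, and 1 array of 48 h replicate 1 was the highest. SOX10, the neural crest factor that acts with MITF, had 6392, 6378 and 5067 at 24 h and 7572, 5655 and 5248 at 48 h. TYRP1, an enzyme of melanin synthesis, had 15841, 15776 and 15412 at 24 h and 16685, 15535 and 13721 at 48 h. Both genes lay above 98% of the probes, at 98.5 ± 0.21% for SOX10 and 99.6 ± 0.09% for TYRP1 (SD, n = 4). DCT, a further pigment enzyme, and S100B have no named probe in the annotation used here.

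Of the 32 listed lineage genes 30 had a named probe and 26 were detected on all 6 arrays. The background is 67.5% of named genes. The transporters SLC45A2 and OCA2, which act on the melanosome, had positions of 98.2% and 94.5%. The melanosome trafficking genes RAB38, MLPH, MYO5A and RAB27A lay at 99.3%, 94.8%, 87.5% and 84.7%. Among the receptors, EDNRB for endothelin was at 98.1%, ERBB3 at 90.9% and MC1R for melanocortin at 86.1%. GPNMB, a glycoprotein related to PMEL, was at 99.0%, and CDK2, a cell-cycle kinase whose gene lies beside PMEL, also at 99.0%.

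PAX3 was at 75.7% with signals of 200 to 256, and IRF4, a regulator of pigmentation, at 72.0% with 170 to 205, both detected on all 6 arrays. KIT, the receptor for stem cell factor, was detected on 5 arrays with signals of 144 to 186, and MREG, a melanosome transport factor, on 5 with 176 to 244. BCL2A1, an antiapoptotic gene, was detected on 1 array and TRPM1, a cation channel of melanocytes, on none. The named markers of the melanoma cell, MITF, PMEL, MLANA, TYR and PRAME, were thus detected on every DMSO array.

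**Figure D2:**
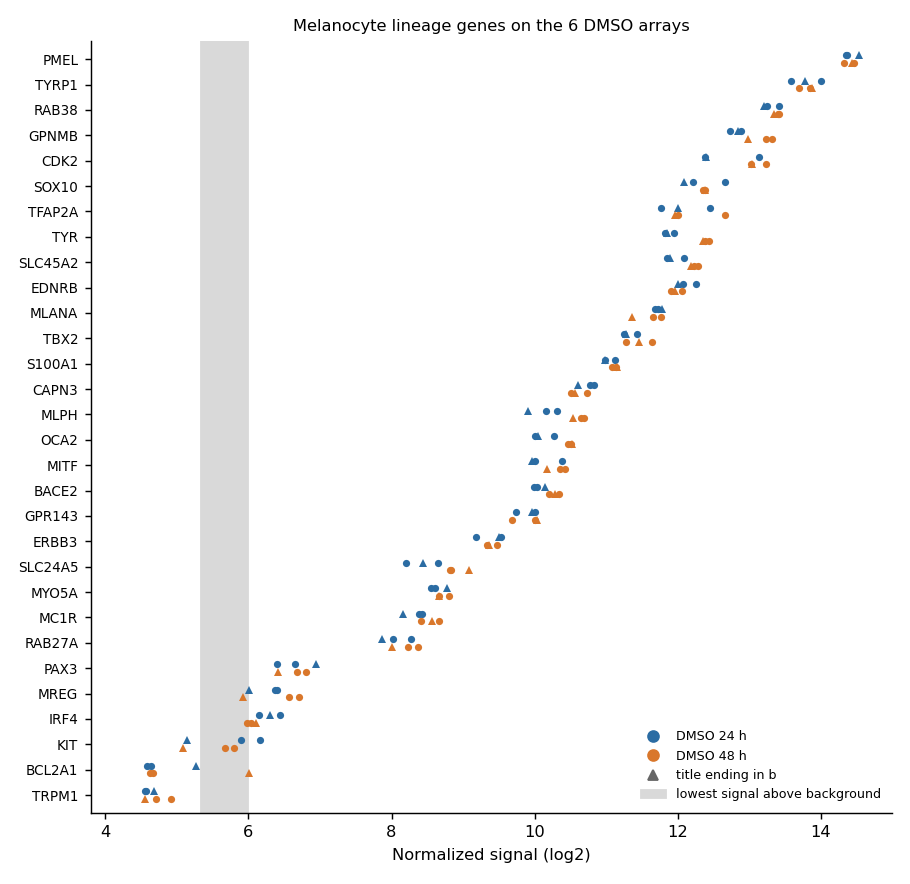
Normalized log2 signal of the 30 measured melanocyte lineage genes on the 6 DMSO arrays, blue for 24 h and orange for 48 h, with triangles for the arrays whose titles end in b. The grey band spans the lowest signal above background on the 6 arrays, log2 5.33 to 5.99, and PMEL lies at the top near 14.41 while BCL2A1 and TRPM1 lie at or below the band.

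Of 9 genes associated with a less differentiated melanoma state that had a named probe, 6 were detected on all 6 arrays, a share near the 67.5% of all named genes. VIM, the intermediate filament vimentin, was at 99.7% with signals of 15855 to 22681, CD44, a hyaluronan receptor, at 98.5%, and SNAI2, a neural crest repressor, at 97.0%. NES lay at 92.7%, TWIST1 at 90.2% and TNC at 72.8%. CDH2, N-cadherin, and SOX9 were detected on 3 arrays each and SOX2 on none.

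Of the 7 measured genes that recur as mutated in uveal melanoma, 6 were detected on all 6 arrays, against 67.5% of all named genes. GNAQ had signals of 281, 223 and 186 at 24 h and of 411, 309 and 336 at 48 h, a signal position of 79.6 ± 3.9% (SD, n = 4). Its lowest arrays were the 2 of 24 h replicate 2, and all 48 h arrays lay above all 24 h arrays. GNA11 had 567, 696 and 611 at 24 h and 843, 697 and 634 at 48 h, at 88.9 ± 0.40% (SD, n = 4), and its times overlapped. The splicing factor genes SRSF2 and SF3B1 were at 98.7% and 95.5%, EIF1AX of translation initiation at 91.4% and MBD4, a DNA repair glycosylase, at 86.1%. PLCB4, a phospholipase C beta, was detected on no array, with signals of 119 to 146. BAP1 and CYSLTR2 have no named probe here, and the arrays read no base changes.

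Downstream of Gq, 18 of 20 measured genes were detected on all 6 arrays, against 67.5% of all named genes. The GTPases RAC1 and RHOA were at 98.7% and 98.5%, and PTK2, the focal adhesion kinase, at 97.9%. MARCKS, a major substrate of protein kinase C, was at 97.8%. RASGRP3, an exchange factor that responds to diacylglycerol, was at 95.5 ± 0.66% (SD, n = 4) with signals of 1616 to 2295. Protein kinase C isoforms lay at 91.2% for PRKCD, 90.2% for PRKCH, 88.0% for PRKCB and 81.6% for PRKCA. PRKCZ, PRKCI and PRKCE followed at 79.1%, 76.0% and 75.7%. PLCB1 was at 73.7% and TRIO at 71.8%, PLCB2 was detected on 2 arrays and ARF6 on 4. YAP1 was at 92.5%.

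In the MAP kinase chain 9 of 10 measured genes were detected on all 6 arrays, against 67.5% of all named genes, and NF1 on 1. The kinases MAP2K2, MAPK3 and MAP2K1 were at 94.6%, 91.9% and 91.3%. Among genes known to respond to ERK, 17 of 18 were detected on all 6 arrays, with FOSL1, an AP-1 subunit, on 1. The share of all named genes, 67.5%, is the background here too. CCND1, the cyclin of early cell cycle entry, had signals of 3851 to 5238, and the feedback phosphatase DUSP6 had 842 to 1122.

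MYC had signals of 3931, 2884 and 2503 at 24 h and of 5858, 4131 and 4227 at 48 h. DUSP4, a nuclear phosphatase of MAP kinases, had 697, 325 and 335 at 24 h and 926, 637 and 787 at 48 h. For both genes the 2 arrays of 24 h replicate 2 were the lowest of the 6. CTNNB1, which encodes beta-catenin, had 1087, 690 and 560 at 24 h and 1602, 1171 and 951 at 48 h, again lowest on the arrays of 24 h replicate 2.

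The partner genes of the compound given to the other arrays were measured as well. CREBBP, the coactivator that ICG-001 binds, had signals of 749, 1092 and 865 at 24 h and of 1338, 931 and 864 at 48 h, and its paralogue EP300 had 230 to 373. BIRC5, which encodes survivin, was at 94.2%, and LEF1, a partner of beta-catenin, at 81.9%. AXIN2, a Wnt feedback gene, and TCF7L2 were detected on 2 arrays each. On all 6 arrays 8 of the 10 measured genes of this list were detected, against 67.5% of all named genes.

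PRAME and the genes of the expression test that divides uveal melanomas by risk of metastasis, 13 in all, each had a named probe. Of these genes 12 were detected on all 6 arrays, against 67.5% of all named genes. Among those known to be higher in the metastatic class, RAB31, a vesicle GTPase, was at 96.3%, HTR2B, a serotonin receptor, at 94.2%, CDH1, E-cadherin, at 83.9% and ECM1 of the extracellular matrix at 82.4%. Among those known to be lower in it, LTA4H, FXR1, ID2 and EIF1B lay between 95.1% and 97.0%, MTUS1, LMCD1 and ROBO1 between 73.4% and 86.7%, and SATB1 was detected on no array. No other line was measured, so these positions assign no class. CDH1 had signals of 270, 299 and 304 at 24 h and of 710, 507 and 543 at 48 h, with no overlap between the times.

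Among cancer-testis antigens, genes mainly expressed in germ cells and in tumours, 14 of 20 measured members were detected on all 6 arrays, a share near the 67.5% of all named genes. PRAME, an antigen and prognostic marker of uveal melanoma, had signals of 1317, 1306 and 1173 at 24 h and of 1915, 1342 and 1268 at 48 h, at 94.0 ± 0.54% (SD, n = 4). GAGE12C had 1387, 2348 and 1787 at 24 h and 3862, 2455 and 2148 at 48 h, at 95.9 ± 0.94% (SD, n = 4). Both genes had their highest array in 48 h replicate 1. SSX1, a repressor first known from fusions in synovial sarcoma, had 576, 770 and 671 at 24 h and 755, 509 and 499 at 48 h.

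The 8 measured GAGE genes lay between 77.0% and 95.9%, and the SSX genes SSX1, SSX4B, SSX3, SSX4 and SSX2 between 73.0% and 88.1%. These are families of near-identical copies, so the probes cannot be assigned to single members. The MAGE-A genes MAGEA6, MAGEA11 and MAGEA12 and the XAGE genes XAGE1B and XAGE2 were detected on no array, and SSX5 on 4. A further 46 listed members have no named probe here, so the share detected does not cover them.

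Antigen presentation was read at unequal levels along the pathway. B2M, the light chain of class I molecules, had signals of 6514, 8797 and 7955 at 24 h and of 9831, 6411 and 5250 at 48 h, at 98.7 ± 0.16% (SD, n = 4). The chaperone CALR was at 97.6%, the peptidase ERAP2 at 97.0% and PSMB10 of the immunoproteasome at 97.7%. HLA-B had 159, 173 and 163 at 24 h and 148, 137 and 137 at 48 h, was at 63.0% and was detected on 2 of 6 arrays, both at 24 h. HLA-C was detected on 4 arrays with 147 to 193, and the peptide transporters TAP1 and TAP2 on all 6 at 76.7% and 75.7%. PSMB9 was detected on none and IRF1, an interferon-induced factor, on 1. Of 19 measured genes 14 were detected on all 6 arrays, against 67.5% of all named genes. A further 9 listed genes of antigen presentation have no named probe here, so the pathway was read in part.

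Cell cycle regulators were also read. CDK4, CCND3 and CDKN1A, the kinase, a cyclin and an inhibitor, lay at 98.1%, 97.9% and 97.0%, and CDKN2A, the inhibitor p16 often lost in tumours, at 84.2% with signals of 355 to 533. RB1, the retinoblastoma protein gene, had 208, 199.5 and 186 at 24 h and 359, 304 and 302 at 48 h, with every 48 h array above every 24 h array. MDM4 and CDKN2B were detected on 2 arrays each and MDM2, a ubiquitin ligase, on 1.

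**Figure D3:**
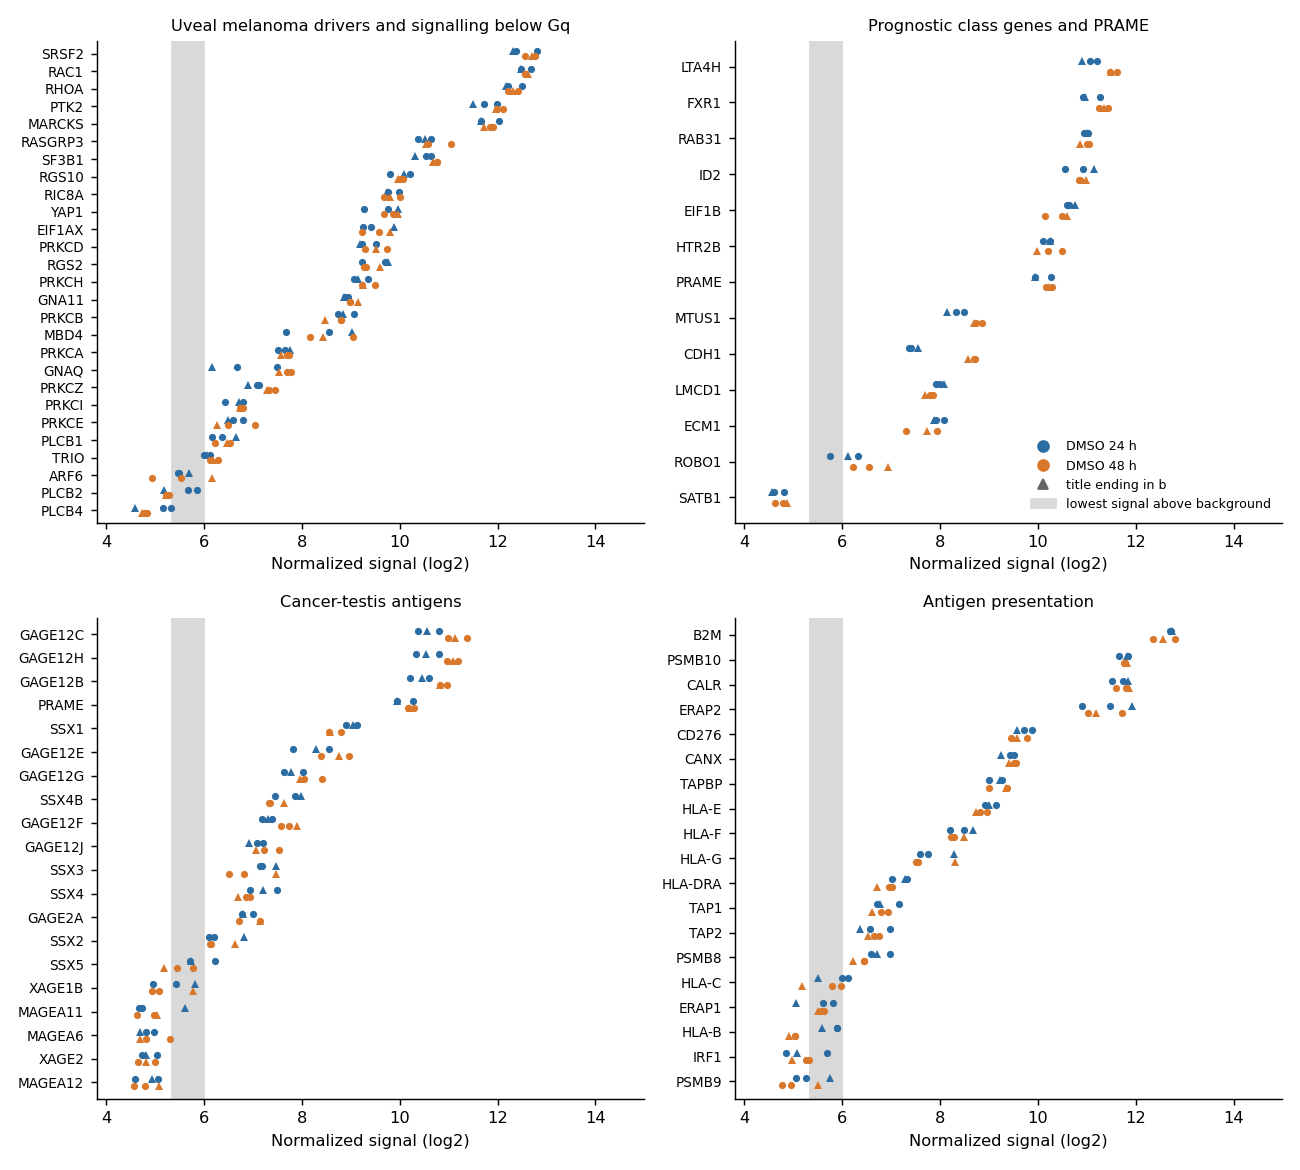
Normalized log2 signal of measured drivers and Gq pathway genes, genes of the prognostic test with PRAME, cancer-testis antigens and antigen presentation genes on the 6 DMSO arrays, blue for 24 h and orange for 48 h, with triangles for arrays ending in b. The grey band is the lowest signal above background, log2 5.33 to 5.99, and PLCB4, SATB1, the MAGE-A genes and HLA-B reach into or below it.

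Markers of other cell types were read at unequal levels, and most listed ones have no named probe here. Of the fibroblast markers LUM, a proteoglycan, was detected on all 6 arrays with signals of 652 to 1293, COL1A1 on 1 and DCN on none. Of the endothelial markers EMCN was detected on all 6 with 381 to 599 and KDR on none. Of the immune markers CD68, a lysosomal protein, was detected on all 6 with 1392 to 1973, and CD14 and LYZ on none. BEST1, a channel of the retinal pigment epithelium, was detected on all 6 with 525 to 849, while of the other markers of that tissue RGR was detected on 3, TTR on 1 and RLBP1 and LRAT on none. Beside CDH1, given above, the epithelial marker CLDN4 was detected on 1 array. MBP, a myelin gene of Schwann cells, was detected on all 6 with 1027 to 1776, as the 1 measured member of its list. Signal positions were 94.7% for CD68, 93.8% for MBP, 90.8% for LUM, 89.0% for BEST1 and 85.9% for EMCN, beside 94.3% for MITF. From RNA of whole wells, expression in a few cells of another type and expression in every cell cannot be told apart.

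The comparison of 48 h with 24 h asks how far the solvent-treated culture drifts between the times of the study. Among 11679 genes tested, 4 passed an adjusted p of 0.05 (0.0342%), of which 1 rose (0.00856%) and 3 fell (0.0257%). At an unadjusted p below 0.05 there were 961 (8.23%), of which 499 were higher (4.27%) and 462 lower (3.96%) at 48 h. The median log2 change over all genes was -0.001. The median size of a gene's change was 0.15 on the log2 scale. It was 0.21 between the 24 h replicates and 0.17 between the 48 h replicates, but these are differences of single replicates and the first is one of means of 2, so their sizes cannot be set against each other.

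SNX10, a sorting nexin of endosomes, had signals of 271, 260 and 293 at 24 h and of 506, 499 and 465 at 48 h. It rose 2.05-fold, by 1.04 ± 0.13 SE on the log2 scale (limma adjusted p = 0.0235), from 7.33 ± 0.11 to 8.36 ± 0.09 (SD, n = 2 each). MGP, matrix Gla protein, an inhibitor of calcification, had 1369, 1954 and 1429 at 24 h and 928, 646 and 680 at 48 h. It was 2.40-fold lower at 48 h, a log2 change of -1.27 ± 0.14 SE (limma adjusted p = 0.0235). No 48 h array of either gene overlapped the 24 h arrays.

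CRYAB, the small heat shock chaperone alpha-B crystallin, had signals of 3630, 5235 and 4041 at 24 h and of 2759, 1680 and 1613 at 48 h. It was 2.27-fold lower at 48 h, a log2 change of -1.18 ± 0.15 SE (limma adjusted p = 0.0235). SCRG1, a secreted protein named for its response to scrapie, had 276, 311 and 289 at 24 h and 240, 189 and 203 at 48 h. It was 2.00-fold lower, a log2 change of -0.998 ± 0.13 SE (limma adjusted p = 0.0235). All 24 h arrays of both genes lay above all 48 h arrays.

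These 4 calls rested on the spread shared with the ICG-001 replicates. With the DMSO replicates fitted alone 0 genes passed limma's adjusted p, 560 having an unadjusted p below 0.05, and with weights for the arrays 0 passed and 685 had one. Without DMSO 24 h replicate 2 there were 0 calls and without DMSO 24 h replicate 1 there were 42, of which 38 rose. Leaving out any of 5 further replicates ended all calls, namely both DMSO replicates of 48 h, the ICG-001 replicate 2 of 24 h and the ICG-001 replicates 1 and 3 of 48 h. Leaving out the ICG-001 replicate 3 of 24 h left 2 calls. The changes themselves stayed close, with log2 values over the replicates left out of 0.96 to 1.11 for SNX10, -1.29 to -1.24 for MGP, -1.27 to -1.10 for CRYAB and -1.07 to -0.93 for SCRG1. Without 1 of the 3 ICG-001 replicates that ended all calls, the adjusted p of these genes lay between 0.055 and 0.0687, and without a DMSO replicate that did so between 0.114 and 0.442. In the authors' table the change of SNX10 was 0.59 (adjusted p = 0.00737) and that of SCRG1 -0.42 (adjusted p = 0.105), and without background correction SCRG1 was at -0.54 (adjusted p = 0.0457). Between the b arrays of the 2 times, compared after the data had been seen and with no test, the changes of SNX10, MGP, CRYAB and SCRG1 were 1.08, -1.24, -1.13 and -1.21.

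**Figure D4:**
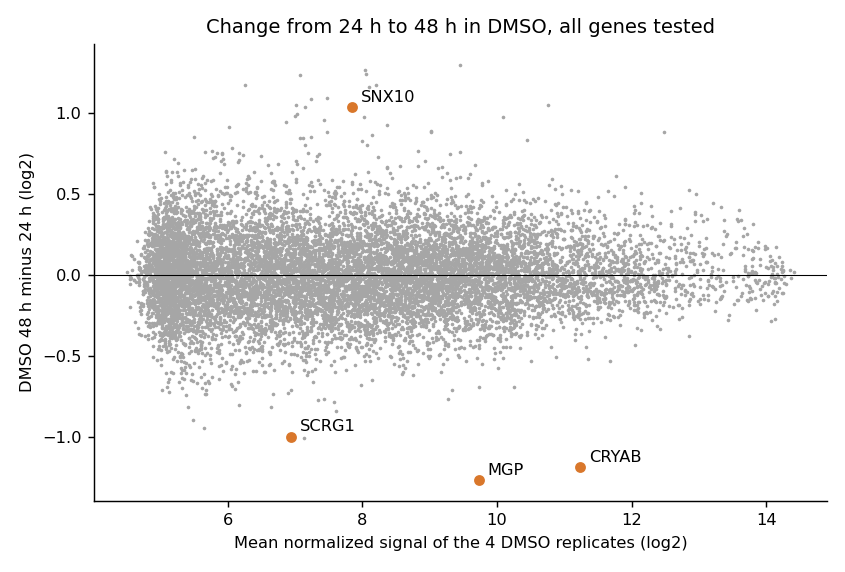
Log2 change from 24 h to 48 h in DMSO (vertical axis) against the mean normalized log2 signal of the 4 DMSO replicates (horizontal axis), 1 point for each of 11679 genes. The 4 genes past the adjusted threshold are in orange, SNX10 at 1.04 and MGP, CRYAB and SCRG1 at -1.27, -1.18 and -0.998, and other genes with changes as large did not pass.

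In the ICG-001 cells the same genes were measured over the same times on other arrays. SNX10 rose there too, by 0.83 ± 0.11 SE on the log2 scale (limma adjusted p = 0.0241), and MGP had a log2 change of -0.91 ± 0.12 SE (limma adjusted p = 0.0241). The deposited ICG-001 signals of SNX10 overlapped, at 188 to 221 at 24 h and 217 to 335 at 48 h, highest on the 2 arrays of 48 h replicate 3. Those of MGP did not overlap. Both genes are among the 17 genes (0.146%) called between the times in ICG-001 cells. CRYAB and SCRG1 had changes of -0.25 and -0.21 that did not pass (adjusted p = 0.466 and 0.485). The time change in ICG-001 minus that in DMSO passed for 0 of 11679 genes by limma, with 660 at an unadjusted p below 0.05. For CRYAB this difference was 0.93 ± 0.19 SE and for SCRG1 0.79 ± 0.17 SE, both with adjusted p = 0.743, so a difference between the treatments in their time change was not shown. SCRG1 itself was at 189 to 311 on the DMSO arrays and at 889 to 1495 on the ICG-001 arrays, with no overlap. That difference, averaged over the times, was 3.35 ± 0.08 SE on the log2 scale (limma adjusted p = 1.23e-09), in a comparison where 41.8% of all genes passed.

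**Figure D5:**
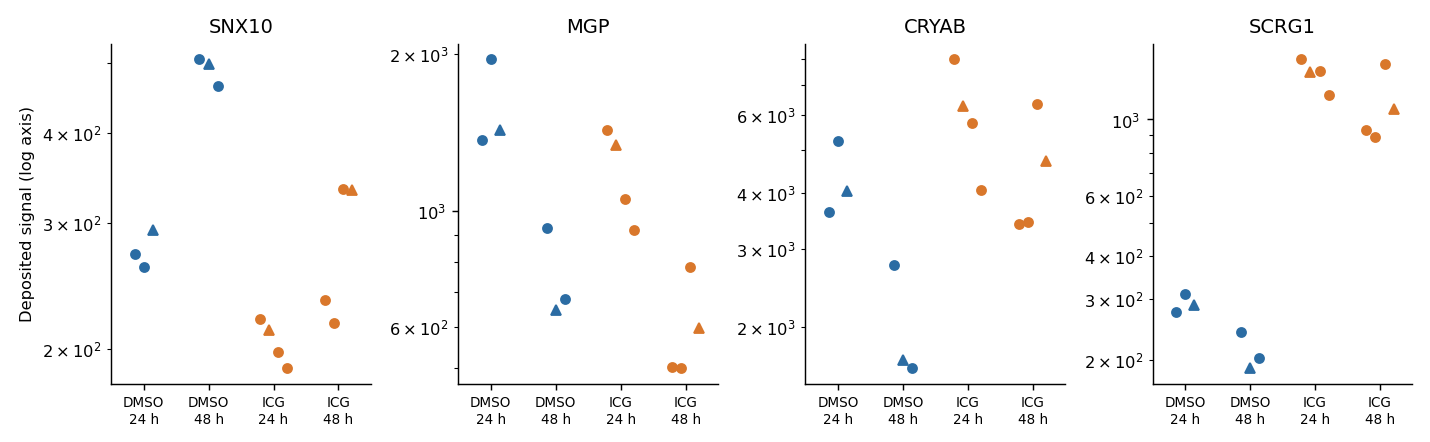
Deposited signal (log axis) of SNX10, MGP, CRYAB and SCRG1 on the 14 arrays, blue for DMSO and orange for ICG-001, with triangles for arrays whose titles end in b. SNX10 lies at 260 to 293 at 24 h and 465 to 506 at 48 h in DMSO, while MGP, CRYAB and SCRG1 are lower at 48 h, and SCRG1 lies at 889 or above on every ICG-001 array.

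None of the lineage, signalling and antigen genes passed the test between the times, and none of the members of the 36 lists did. The 2 replicates at 48 h lay on 1 side of the 2 at 24 h for 4110 genes (35.2%), and the deposited signals of the 3 arrays at 48 h lay on 1 side of the 3 at 24 h for 1128 (9.66%). The second share is the background for genes whose deposited signals did not overlap, among them TYR, GNAQ, CDH1, RB1, MYC and HLA-B. These signals are not normalized between arrays. After normalization the MYC arrays overlapped, at log2 11.93 for 24 h replicate 1 and 11.92 for array b of 48 h replicate 1. TYR had a log2 change of 0.51 ± 0.13 SE (adjusted p = 0.467) and GNAQ of 0.74 ± 0.27 SE (adjusted p = 0.570). CDH1 was at 1.24 ± 0.25 SE (adjusted p = 0.289) and RB1 at 0.98 ± 0.18 SE (adjusted p = 0.160), all from the fit by limma. These differences were larger than the SE and failed the correction over all genes. Without DMSO 24 h replicate 1, GNAQ was at 1.27 (adjusted p = 0.0242) and RB1 at 1.23 (adjusted p = 0.026), while GNAQ was at 0.20 without DMSO 24 h replicate 2. Without ICG-001 24 h replicate 1, CDH1 passed at an adjusted p of 0.0404. HLA-B, not well above background at 48 h, had an adjusted p of 0.0766. The changes of MITF, PMEL, MLANA and PRAME were 0.14, 0.02, -0.11 and 0.11, and those of CCND1, CREBBP, MYC and CTNNB1 were 0.07, 0.14, 0.49 and 0.45, with adjusted p from 0.605 to 0.975. MYC was at 0.06 without DMSO 24 h replicate 2 and at 0.92 (adjusted p = 0.0519) without DMSO 24 h replicate 1, and CREBBP ran from 0.034 to 0.24 over the replicates left out. In other settings the sign turned for MITF, PMEL, MLANA, PRAME, CCND1 and CTNNB1.

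The lists are described by their counts, since their members were chosen with results known. Of 29 tested lineage genes 21 were higher and 8 lower at 48 h, with a median log2 change of 0.13 against -0.001 over all genes. Of 18 ERK response genes 14 were higher, with a median of 0.17, and of 17 cancer-testis genes 10, with 0.09. Antigen presentation genes were lower in 13 of 19, with a median of -0.07, and interferon response genes in 12 of 18, with -0.16. The 16 heat shock genes, a list that leaves out CRYAB, which fell, had a median of 0.20. The 11 fatty acid synthesis genes had 0.24, the 24 ribosome biogenesis genes -0.14 and the 12 histone genes -0.24. Of 35 mitosis genes 24 were higher, with a median of 0.07, and of 36 DNA replication genes 23, with 0.03. No member of any of these lists passed the threshold in either direction, and none of the 4 called genes is in a list.

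In 24 h replicate 2, 90 genes were over 2-fold lower than in replicate 1 and 86 over 2-fold higher. GNG12, a gamma subunit of G proteins, had 529 in replicate 1, 211 and 201 in replicate 2 and 514 to 678 at 48 h. TWF1, an actin-binding protein, had 470 against 202 and 214, with 483 to 588 at 48 h, and EIF3CL, a translation factor gene with a near-identical copy, had 627 against 269 and 197. In each of these 3 genes both arrays of replicate 2 were the lowest of the 6. GSTA2, a glutathione transferase, went the other way, with 133 in replicate 1 and 436 and 274 in replicate 2.

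At 48 h the genes farthest apart between the replicates were CDK11A, PLEKHB2, SSTR1, NBPF9 and NBPF10. SSTR1, a somatostatin receptor, had 276 and 178 in replicate 1 and 134 in replicate 2. PLEKHB2 had 338 and 306 in replicate 1 and 622 in replicate 2, and NBPF9, of a family of near-identical copies, 1437 and 1009 against 2676. At 24 h PLEKHB2 was at 291 in replicate 1 and at 558 and 557 in replicate 2.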

How the data were processed

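Total RNA of DMSO-treated and ICG-001-treated Mel202 cells was amplified, biotin-labelled and hybridised to Illumina bead arrays, and RNA integrity was checked, per the labels' protocols. The deposited non-normalized table holds an intensity per probe and array and, per the file headers, the p-value with which each probe was detected, in multiples of 1/770. The authors' processed table holds values on a log2 scale for 22579 of the 47323 probes. Per the submitters' processing notes the lumi package was used. Its version and settings, the slides and the scan dates were not stated.

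The neqc function of limma 3.58.1 (R 4.3.3) corrected the signals for background by way of their detection p-values, added an offset of 16, applied quantile normalization and gave log2 values. Exactly 1 gene symbol was annotated for 16545 probes, several for 3, and none for 6031 probes that the authors' table lists. Symbols were matched to RefSeq on GRCh38.p14. Kept were probes detected at p below 0.05 on 3 or more of 14 arrays, and 1 probe, that of the highest log2 mean, represented each of the 11679 genes tested. In 3142 of them over 1 probe was past the filter. A means model over the 4 groups was fitted with lmFit and eBayes on 10 replicates (2 DMSO and 3 ICG-001 at each time, residual degrees of freedom 6). Every adjusted p is limma's with Benjamini-Hochberg correction over these genes, two-sided, with a threshold of 0.05.

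No label says that replicates came from separate cultures. The p-values therefore cover the spread among these samples alone, and this spread may be technical. The members and lists were chosen with earlier results of these data known. Named were the members of the baseline lists, the 10 brightest genes, the genes past the threshold over time, a set of fixed genes, the 5 genes farthest apart between replicates at each time and the genes detected under 1 treatment alone. Alternatives were other background corrections, scalings, filters, treatments of the arrays ending in b, and leaving out each replicate.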

Additional observations from a re-analysis of the deposited data

Results flagged for a closer look

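MYC in DMSO 24 h replicate 2 had a log2 signal of 11.07, far below the other 3 DMSO replicates, of which the nearest was at 11.93 and the farthest at 12.01. Its gap to the nearest replicate was 0.91 of the whole range, above the 95% critical value of 0.829 for 4 values. Over 26 genes looked at in this way, chance alone would be likely to flag about 1 in 20.

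Outside the named genes, 2214 probes without a single gene symbol were detected on all 6 DMSO arrays. They take no place in the comparisons between genes above, and no gene is given to them here.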

How the results depend on the processing

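The count of named genes detected on all 6 DMSO arrays, 8305, lay between 8282 and 9395 under a looser detection limit, the brightest probe alone and without the arrays ending in b, and between 8309 and 8548 with a replicate left out. Among the probes of the authors' table alone signal positions were lower, at 99.96% for PMEL, 88.1% for MITF and 57.4% for GNAQ, because that table holds fewer dim probes. The count of genes called between the times, 4, was 12 with an offset of 50 and 12 without background correction, 29 with every array as a replicate and 10 where the b arrays had their own term and the title number was a random block. It was 1 when b arrays were left out, 0 when arrays were weighted and 0 when the DMSO replicates were fitted alone. It stayed between 4 and 6 under 75th percentile scaling, in the authors' table, with no filter or a stricter one and with the mean of a gene's probes. With a replicate left out, a lone partner being taken to vary like the other groups, it ran from 0 to 42, and the difference of the time changes from 0 to 1. SNX10, MGP, CRYAB and SCRG1 kept their direction in every setting run. Without DMSO 24 h replicate 2 the change of MITF turned to -0.065, of PRAME to -0.059, of CTNNB1 to -0.12 and of CCND1 to -0.041. Over the replicates left out, MITF ran from -0.065 to 0.34, PRAME from -0.059 to 0.27, CTNNB1 from -0.12 to 1.03, CCND1 from -0.041 to 0.18 and PMEL from -0.022 to 0.064. PMEL turned to -0.098 and CCND1 to -0.089 under 75th percentile scaling, PMEL to -0.0054 with every array as a replicate and to -0.016 and -0.022 without DMSO 24 h replicate 1 or 48 h replicate 2. CCND1 turned to -0.013 without DMSO 48 h replicate 2, and MLANA to 0.0073 when b arrays were left out. None of these was called in either setting, and the cause was not tested. CDH1 passed with an offset of 50 (adjusted p = 0.0303), without background correction (0.0253) and without ICG-001 24 h replicate 1 (0.0404). RB1 passed in 3 settings, and GNAQ (without DMSO 24 h replicate 1), TYR and HLA-B (every array as a replicate) in 1 each. Signal over background limits the dim genes, those under a log2 signal of about 5.99. No paired analysis was possible because the titles of different groups have no number in common.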
